A study of Mus musculus with 14 samples.

Results

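A set of 10 genes that encode granule and cytosolic proteins of neutrophils was followed through RNA sequencing of regulatory T cells sorted from mouse spleen. They were 10 of the 30284 genes measured: 4 genes of the primary granules (Elane, Prtn3, Ctsg and Mpo) and 6 genes of later maturation (Ngp, Ltf, Camp, Lcn2, S100a8 and S100a9). The genes were chosen because they were high in the talin KO libraries of these same data, so their difference between the groups is described and not tested. The cells were Foxp3+YFP+ cells of C57/B6 mice. Talin KO cells came from Tln1fl/flFoxp3cre/wt mice (3 units) and wild-type (WT) cells from Tln1wt/wtFoxp3cre/wt mice (4 units). Both groups therefore carried 1 Foxp3 cre allele, whose Cre acts in cells that express Foxp3, and a library held the RNA of 1 or 2 animals. Each unit was sequenced as 2 samples, which were added together, so 14 samples gave 7 units.

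Neutrophils make their granules in sequence while they mature. Promyelocytes fill primary (azurophil) granules with myeloperoxidase and serine proteases, and the transcripts of these proteins fade as the cells move on to fill specific granules with lactoferrin and cathelicidin. S100A8 and S100A9 are calcium-binding proteins of the cytosol whose transcripts stay abundant up to the mature cell, and none of these genes is a marker of regulatory T cells.

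The start regions of the genes are shown first because sequence had no part in the choice of the genes. PU.1 (Spi1) and the C/EBP factors are the best known activators of granule genes, so the PU.1 core GAGGAAG and the C/EBP letters TTGCNNAA were searched on both strands; the motifs do not overlap each other in any of the windows. Each window runs from 250 bases before to 50 bases after a RefSeq transcript start, and all 10 genes were found in the RefSeq table of GRCm38.p6. The PU.1 core stood in the windows of 4 of 4 primary genes and of 2 of 6 later genes, against 13.6% of all 32851 windows. The C/EBP letters stood in 0 of 4 primary and in 4 of 6 later windows, against 10.8% of all windows. The windows of 3 primary genes with the PU.1 core and of 2 later genes with the C/EBP letters are given 5′ to 3′ along the gene, with the matches in capitals. Elane is at chr10:79886062-79886361 (plus strand), Prtn3 at chr10:79879417-79879716 (plus), Mpo at chr11:87793534-87793833 (plus), Ngp at chr9:110419558-110419857 (plus) and Ltf at chr9:111019042-111019341 (plus).
Elane: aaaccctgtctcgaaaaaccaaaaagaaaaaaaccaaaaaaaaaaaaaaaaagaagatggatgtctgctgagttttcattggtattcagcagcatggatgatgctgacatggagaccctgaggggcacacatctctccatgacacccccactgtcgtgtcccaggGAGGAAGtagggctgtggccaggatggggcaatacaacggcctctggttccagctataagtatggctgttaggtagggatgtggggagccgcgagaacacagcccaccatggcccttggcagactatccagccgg
Prtn3: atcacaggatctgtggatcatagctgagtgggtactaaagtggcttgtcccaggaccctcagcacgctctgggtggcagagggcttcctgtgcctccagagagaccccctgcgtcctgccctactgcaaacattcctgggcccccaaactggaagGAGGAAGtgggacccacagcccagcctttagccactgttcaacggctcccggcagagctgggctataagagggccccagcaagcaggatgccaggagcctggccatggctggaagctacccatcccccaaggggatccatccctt
Mpo: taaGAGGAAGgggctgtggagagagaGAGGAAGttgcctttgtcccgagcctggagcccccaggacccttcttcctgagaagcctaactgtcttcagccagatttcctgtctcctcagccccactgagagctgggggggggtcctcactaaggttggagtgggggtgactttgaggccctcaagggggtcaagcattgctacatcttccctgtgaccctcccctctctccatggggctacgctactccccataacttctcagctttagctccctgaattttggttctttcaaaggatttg
Ngp: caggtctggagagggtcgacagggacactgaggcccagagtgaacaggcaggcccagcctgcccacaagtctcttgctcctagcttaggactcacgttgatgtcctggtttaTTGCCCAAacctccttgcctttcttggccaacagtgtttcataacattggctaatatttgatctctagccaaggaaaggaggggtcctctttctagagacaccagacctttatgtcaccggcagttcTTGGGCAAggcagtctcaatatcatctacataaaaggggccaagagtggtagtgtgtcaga
Ltf: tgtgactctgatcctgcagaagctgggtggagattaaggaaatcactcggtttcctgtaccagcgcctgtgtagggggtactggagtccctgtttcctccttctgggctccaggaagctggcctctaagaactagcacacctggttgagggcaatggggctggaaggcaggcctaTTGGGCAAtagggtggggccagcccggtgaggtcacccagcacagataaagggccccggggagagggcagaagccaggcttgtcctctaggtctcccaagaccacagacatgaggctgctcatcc
The first base of the PU.1 core lay at -85 in Elane, at -95 in Prtn3, at -216 in Ctsg and at -247 and -224 in Mpo, counted from the start, and in each case on the gene's own strand. Among the later genes it lay at -21 in Lcn2 and at -171 in S100a8, in both on the opposite strand. The C/EBP letters began at -138 and -11 in Ngp, at -75 in Ltf, at -216 in Lcn2 and at -236 in S100a9. Camp had neither motif in its window. A match is a run of letters and not evidence of binding. Variants of the letters were not searched, so a window without a match is not evidence that a site is absent.

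Some of the genes are neighbours in GRCm38. Prtn3 (chr10:79874476-79883174) ends 3072 bases before Elane (chr10:79886247-79888215), both on the plus strand. Camp (chr9:109847379-109849617, minus), Ngp (chr9:110419747-110423012, plus) and Ltf (chr9:111019271-111042767, plus) lie on chromosome 9, with 570129 bases between Camp and Ngp and 596258 bases between Ngp and Ltf. S100a8 (chr3:90668978-90670035, plus) and S100a9 (chr3:90692632-90695721, minus) are 22596 bases apart. Mpo (chr11:87793581-87804413, plus), Ctsg (chr14:56099881-56102574, minus) and Lcn2 (chr2:32384633-32388252, minus) stand alone. Prtn3 overlaps Plppr3 on the other strand and shares 7.48% of its 31-base words with it, and 12.1% of the words of Mpo occur in other genes, so the levels of these 2 genes are less certain; the other 8 genes share no word.

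Several facts about the whole series touch these values. Reads in genes numbered 44524768, 38811489 and 56109143 in KO-labelled units 1 to 3, and 12851425, 20863157, 39214264 and 13458684 in WT units 1 to 4. Tln1, which encodes talin, averaged 901 ± 113 CPM in KO-labelled units and 668 ± 128 CPM in WT units (SD, n = 3 and 4; CPM is the count scaled to the library size after TMM). Its log2 fold change was 0.43 ± 0.18 (SE) with an adjusted p of 0.126 in edgeR's quasi-likelihood test, and the gene total does not separate deleted from remaining exons. The directions below thus rest on the labels, and the units are called KO-labelled. KO-labelled unit 3 stood apart from the other units of its group, and WT unit 1 had the highest WT value for 8 of the 10 genes, so results are also given without them. The regulatory T cell markers were present, with 9 markers summing to between 2796 and 3800 CPM in KO-labelled units and between 4455 and 5126 CPM in WT units; 3 of the 9 were called lower, against 6.52% of all genes tested. Which animals stand behind which unit is not labelled, so the p-values below cover only unit-to-unit spread, which may be technical in part.

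In the primary granule group, all 4 genes were higher in each KO-labelled unit than in any WT unit. Elane encodes neutrophil elastase, a serine protease, and had 21.4, 16.9 and 197 CPM in KO-labelled units 1 to 3, against 0.551, 0, 0.300 and 0 CPM in WT units 1 to 4. These WT values are 19 reads in all, and 0 reads allows up to 0.147 CPM in WT unit 2 and 0.229 CPM in WT unit 4. The groups did not overlap, and KO-labelled unit 3 was far above the other KO-labelled units, which were alike.

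Prtn3 encodes proteinase 3, the serine protease next to elastase on chromosome 10. It had 17.9, 19.2 and 183 CPM in KO-labelled units 1 to 3, against 0.708, 0.147, 0.175 and 0 CPM in WT units 1 to 4. The order of the units was again led by KO-labelled unit 3, with no overlap between the groups. Of its 6 annotated transcripts 3 retain an intron, and kallisto placed 34.2%, 33.6% and 46.3% of the gene's reads on them in KO-labelled units 1 to 3, a split between overlapping transcripts that is uncertain.

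Ctsg encodes cathepsin G, the third serine protease of these granules. It had 10.7, 10.7 and 83.9 CPM in KO-labelled units 1 to 3, against 0.157, 0.391, 0.125 and 0 CPM in WT units 1 to 4. Its highest WT value was in unit 2 and not in unit 1, on 8 reads.

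Mpo encodes myeloperoxidase, the enzyme that forms hypochlorous acid, and was the most abundant of the 4 in reads. Its CPM was 113.5, 94.0 and 930.1 in KO-labelled units 1 to 3, against 5.98, 1.32, 1.98 and 0.656 in WT units 1 to 4. It was the one gene of the 10 with at least 9 reads in each WT unit (191 in all). Even here the highest WT unit stayed below the lowest KO-labelled unit.

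The later genes were high in the same units but in another pattern. Ngp encodes neutrophilic granule protein, a cystatin-related protein of specific granules in mice, and had 70.5, 32.5 and 63.2 CPM in KO-labelled units 1 to 3, against 1.73, 0, 0.025 and 0.686 CPM in WT units 1 to 4. Ltf encodes lactoferrin, an iron-binding protein, and had 48.4, 21.3 and 40.6 CPM in KO-labelled units, against 0.472, 0.049, 0.050 and 1.14 CPM in WT units. Both genes were lowest in KO-labelled unit 2 and about as high in unit 1 as in unit 3.

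Camp, which encodes the cathelicidin CRAMP, an antimicrobial peptide, had 19.2, 8.14 and 16.6 CPM in KO-labelled units 1 to 3, against 0.629, 0, 0.15 and 0.152 CPM in WT units 1 to 4. Lcn2, which encodes lipocalin 2, a binder of bacterial siderophores, had 20.9, 11.6 and 19.9 CPM in KO-labelled units, against 0.157, 0, 0 and 0.076 CPM in WT units. Only 3 reads of Lcn2 were found in all WT units together, against 2522 in KO-labelled units, a pooled ratio of 515.5 with a 95% exact interval of 176 to 2501. Such intervals cover counting error only.

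S100a8 and S100a9 encode the subunits of calprotectin. S100a8 had 61.0, 20.7 and 32.3 CPM in KO-labelled units 1 to 3, against 2.75, 0, 0 and 0.914 CPM in WT units 1 to 4. S100a9 had 104, 39.3 and 62.2 CPM in KO-labelled units, against 2.36, 0.049, 0.025 and 0.990 CPM in WT units. Both were highest in KO-labelled unit 1, where no primary granule gene peaked, and their few WT reads lay almost all in WT units 1 and 4.

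**Figure D1:**
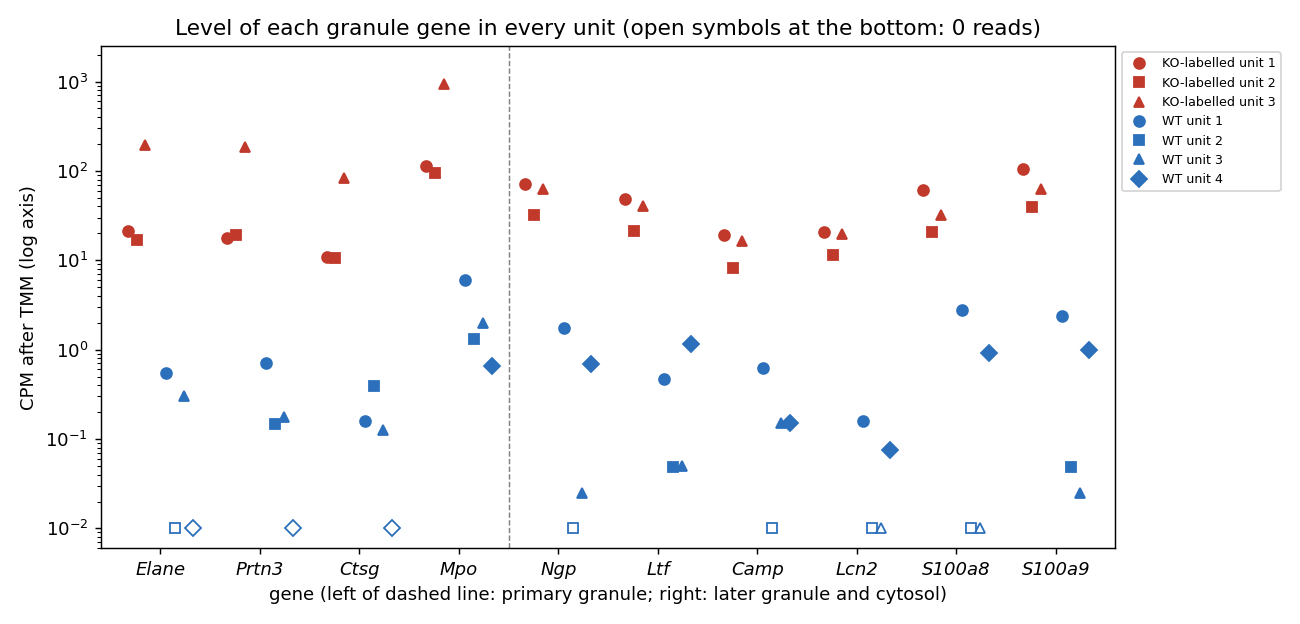
Level of each of the 10 genes in every unit, in CPM after TMM scaling on a log axis, with KO-labelled units 1 to 3 in red, WT units 1 to 4 in blue, and units with 0 reads as open symbols at the bottom. Every red symbol lies above every blue symbol of its gene, and the triangle of KO-labelled unit 3 stands far above the other red symbols for Elane, Prtn3, Ctsg and Mpo only.

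All 10 genes passed the filter on low counts, and in 10 of 10 every KO-labelled unit was above every WT unit. This held for 16.7% of all 15775 genes tested, and since the genes were picked from this contrast nothing is read from their count. Log2 fold changes of KO-labelled over WT units ran from 7.32 ± 1.33 (SE) for Mpo to 8.48 ± 1.53 for Elane among the primary genes. Prtn3 and Ctsg lay between, at 8.31 ± 1.46 and 7.62 ± 1.25. Among the later genes they ran from 5.58 ± 1.58 for S100a8 to 8.70 ± 0.76 for Lcn2, the highest of the 10. Camp at 6.13 ± 0.84, S100a9 at 6.64 ± 1.26, Ltf at 6.70 ± 1.04 and Ngp at 6.84 ± 1.27 lay between these. The ranges of the classes thus overlapped, though the value of Lcn2 rests on only 3 WT reads. The median was 7.96 for the primary and 6.67 for the later genes, against 0.0605 for all genes tested. Without KO-labelled unit 3 the medians were 6.08 for the primary and 6.68 for the later genes, so the order of the classes turned round; it also did with the unit number as a block, at 7.19 and 7.64. Without WT unit 1 they were 8.51 and 7.84. Because this is bulk RNA, more cells of a type and more RNA per cell cannot be told apart.

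Within the KO-labelled group the classes parted. Relative to the mean of KO-labelled units 1 and 2, unit 3 held 10.25 times as much Elane, 9.88 times as much Prtn3, 8.96 times as much Mpo and 7.83 times as much Ctsg. The same ratio was between 1.17 and 1.23 for Ltf, Camp, Ngp and Lcn2, 0.868 for S100a9 and 0.790 for S100a8. No later gene came near the smallest ratio of a primary gene. At a ratio of 4 or more, a bound set after the values were seen, stood 4 of 4 primary and 0 of 6 later genes, against 2.36% of all genes tested; unit 3 is 1 unit, so the ratio has no replicate check.

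The other pair of KO-labelled units differed in the opposite class. Unit 1 over unit 2 was between 0.933 and 1.27 for the primary genes and between 1.80 and 2.95 for the later genes. Unit 3 accordingly held between 79.7% and 83.7% of the summed CPM of the 3 KO-labelled units for the primary genes, between 36.8% and 38.0% for Ngp, Ltf, Camp and Lcn2, 30.3% for S100a9 and 28.3% for S100a8. The 2 samples of a unit gave the same picture: over the 30 values with at least 100 reads in both samples together, the ratio of their CPM lay between 0.852 and 1.11. Of the 30, 5 went past the 5% level of a chi-square of counts, a larger share than counting error alone gives on average.

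**Figure D2:**
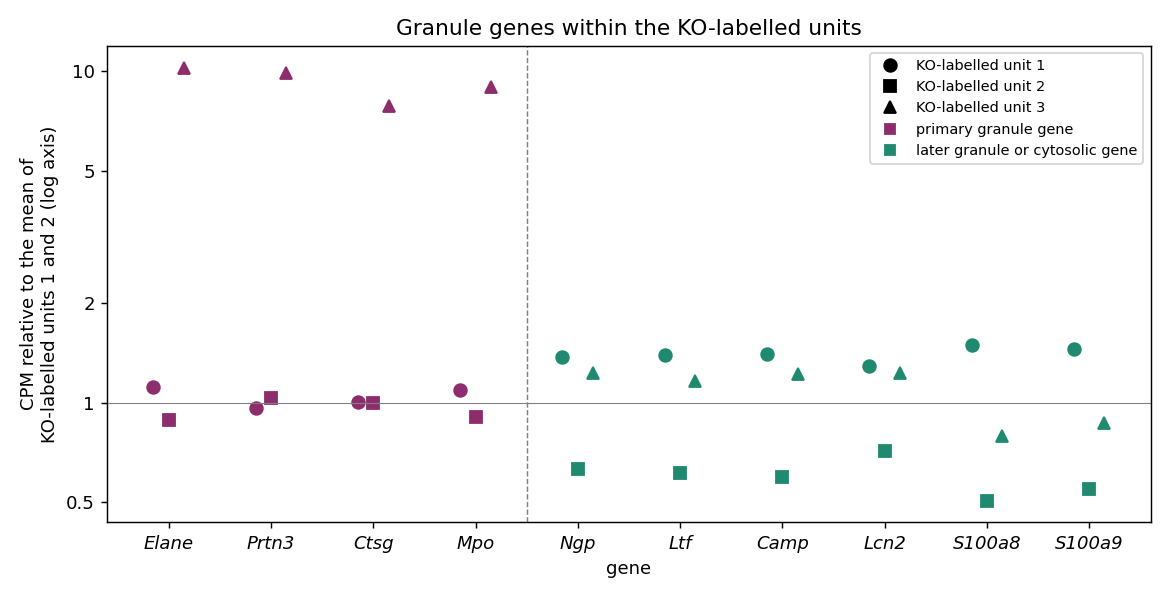
CPM of each gene in KO-labelled units 1 to 3 (circle, square and triangle) divided by the mean of units 1 and 2, on a log axis, with primary granule genes in purple and later genes in green. Unit 3 lies between 7.83 and 10.25 for the primary genes and between 0.790 and 1.23 for the later genes, and unit 2 is the lowest for all 6 later genes.

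Levels of different genes were compared per length, in TPM recomputed for each unit from the summed estimated counts. In KO-labelled units 1 and 2, S100a9 led with 265.5 and 112.7 TPM, followed by S100a8 with 253 and 96.2 TPM. In KO-labelled unit 3 the leading genes were Mpo with 388, Prtn3 with 304 and Elane with 212 TPM, while S100a9 had 155 and S100a8 had 130.2 TPM. The order by level was therefore not one order for the group. Ltf was the lowest of the 10 in KO-labelled units 2 and 3, at 7.53 and 12.4 TPM, and Ctsg was the lowest in unit 1, at 10.7 TPM. Over the KO-labelled units the means were 178 ± 79 TPM for S100a9, 161 ± 197 for Mpo, 160 ± 82 for S100a8 and 123 ± 156 for Prtn3 (SD, n = 3). These SDs cover the spread of each gene between units and not that of a difference between genes. S100a9 was above S100a8, and Mpo above Prtn3, in each KO-labelled unit. The S100 genes were above Mpo and Prtn3 in units 1 and 2 and below them in unit 3.

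The proportions between the genes of a class were compared across the KO-labelled units. Mpo made up 44.6%, 38.1% and 39.4% of the summed TPM of the primary genes in KO-labelled units 1 to 3, and Elane made up 20.9%, 18.4% and 21.6%. Prtn3 followed with 25.1%, 33.1% and 30.8%, and Ctsg with 9.40%, 10.4% and 8.26%. The largest shifts were those of Prtn3 and Mpo between units 1 and 2. The order of the 4 shares was the same in each unit, while the sum they divide was several times higher in unit 3. In the later class S100a9 made up 40.6%, 40.3% and 38.4%, S100a8 38.7%, 34.4% and 32.3%, and Ngp 8.98%, 10.9% and 12.7%. Camp made up 5.86%, 6.54% and 8.04%, Lcn2 3.55%, 5.20% and 5.36%, and Ltf 2.33%, 2.69% and 3.09%. The granule genes of the later class thus took larger shares in units 2 and 3 than in unit 1, and S100a8 took a smaller one. Unit 3 over unit 1 in CPM ran from 0.529 for S100a8 to 0.955 for Lcn2.

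The class sums set the primary against the later genes in each unit. The 4 primary genes summed to 113.6, 114.8 and 985 TPM in KO-labelled units 1 to 3, against 5.36, 1.18, 1.84 and 0.243 TPM in WT units 1 to 4. The 6 later genes summed to 654, 279.7 and 402.5 TPM in KO-labelled units, against 22.0, 0.141, 0.473 and 7.86 TPM in WT units. The primary sums of KO-labelled units 1 and 2 were nearly equal although their later sums were not.

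The ratio of primary to later TPM was 0.174, 0.410 and 2.45 in KO-labelled units 1 to 3, against 0.24, 8.41, 3.90 and 0.0309 in WT units 1 to 4. On the log2 scale it averaged -0.84 ± 1.95 in KO-labelled units and -0.50 ± 3.72 in WT units (SD), a gap far below the spread within either group. The WT ratios rest on few reads: primary and later reads numbered 94 and 103 in WT unit 1, 38 and 2 in unit 2, 103 and 10 in unit 3, and 9 and 52 in unit 4. In reads, the primary genes took 33.55% (95% exact interval 32.93 to 34.18), 51.34% (50.39 to 52.29) and 85.58% (85.35 to 85.81) of the 10 genes' reads in KO-labelled units 1 to 3. In WT units 1 to 4 they took 47.7% (40.6 to 54.9), 95% (83.1 to 99.4), 91.2% (84.3 to 95.7) and 14.75% (6.975 to 26.2). The units of both groups thus ranged from mostly later to mostly primary reads.

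**Figure D3:**
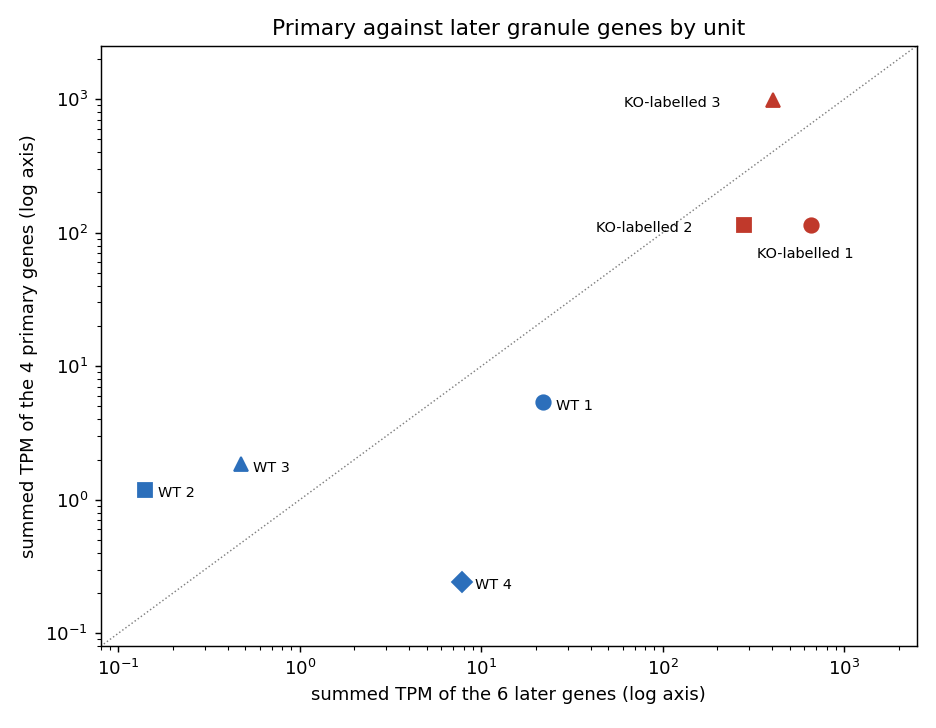
Summed TPM of the 4 primary genes against summed TPM of the 6 later genes in each unit, both on log axes, with KO-labelled units in red, WT units in blue and a dotted line where the sums are equal. KO-labelled unit 3 and WT units 2 and 3 lie above the line, and KO-labelled units 1 and 2 and WT units 1 and 4 lie below it.

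The other genes of neutrophil maturation were taken from 4 lists of 49 genes, of which 43 passed the filter. Of these, 22 were called higher in KO-labelled units and 1 lower at an adjusted p of at most 0.05 (edgeR's quasi-likelihood test over all genes), against 7.07% called higher and 6.52% called lower among all genes tested. The calls depended on single units: 11 of the 22 passed in all 7 fits that left out 1 unit, and the count of higher calls was 12 without KO-labelled unit 3 and 11 without WT unit 4. The lists were drawn up with earlier results of these data known, so the counts describe these units.

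The list of other primary granule genes had 7 of 9 members tested and 3 called higher, with a median log2 fold change of 0.435. Serpinb1a, an inhibitor of the granule serine proteases, rose to 17.9 ± 8.03 CPM in KO-labelled units, against 2.38 ± 0.874 CPM in WT units (log2 fold change 2.92 ± 0.38, adjusted p 0.00208), and it passed in all 7 fits without a unit. Prss57, a serine protease of primary granules, had 1.76, 0.549 and 11.2 CPM in KO-labelled units 1 to 3 and at most 0.157 CPM in a WT unit. Its log2 fold change was 5.82 ± 1.31 (adjusted p 0.0305), and the call ended without KO-labelled unit 3 or without any 1 WT unit. Gaa, the lysosomal acid glucosidase, rose by 1.05 ± 0.27 on the log2 scale (adjusted p 0.0348), a call that ended without KO-labelled unit 2 or 3 or WT unit 1, 2 or 4. The lysosomal genes Gusb and Ctsc and the proteoglycan gene Srgn, which other leukocytes express too, did not pass the test. Bpi and Lyz1 were too low to test, with 4 and 18 reads in KO-labelled units against 0 and 1 read in WT units.

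The list of other specific granule genes had 9 of 11 members tested and 5 called higher, with a median of 4.47. Mmp8, the collagenase of specific granules, had 5.11, 1.02 and 3.70 CPM in KO-labelled units 1 to 3 and at most 0.157 CPM in a WT unit (log2 fold change 5.95 ± 0.85, adjusted p 0.00337). Chil3, a chitinase-like protein, had 34.0, 10.9 and 25.95 CPM in KO-labelled units, against 1.02, 0.342, 0.075 and 0.838 CPM in WT units (log2 fold change 5.53 ± 0.83, adjusted p 0.0110). Both were highest in KO-labelled unit 1 and lowest in unit 2, the order that Ngp, Ltf, Camp, Lcn2, S100a8 and S100a9 had too. A lowest value in unit 2 was not particular to these genes, since Elane and Mpo had it as well. Ctsg had it by a small margin, at 10.69 CPM in unit 2 and 10.74 CPM in unit 1.

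Cd177, a surface protein of neutrophils, rose by 4.47 ± 0.71 on the log2 scale (adjusted p 0.00590), with 6.62 ± 1.78 CPM in KO-labelled units and 0.335 ± 0.332 CPM in WT units. Lrg1, a glycoprotein stored in neutrophil granules, had 186 reads in KO-labelled units and 0 in WT units. Set against a floor of 3 reads over the WT group it was at least 38.0-fold higher (adjusted p 0.0110). Its CPM was 0.996, 0.536 and 2.13 in KO-labelled units 1 to 3, and the bound was 22.5-fold without KO-labelled unit 3 and 20.4-fold without WT unit 3, the deepest WT library. The 5th call was Hp, haptoglobin, which had 9.72, 6.12 and 29.2 CPM in KO-labelled units and at most 0.708 CPM in a WT unit. Its log2 fold change was 6.22 ± 1.21 (adjusted p 0.0258), and the call ended without WT unit 3 or 4. The subunits of the NADPH oxidase Cybb and Cyba, with Pglyrp1 and Ltb4r1, did not pass; Cybb had 64.8 ± 17.6 CPM in KO-labelled units and 37.0 ± 15.0 CPM in WT units. Olfm4 and Ptx3 were too low to test.

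The list of gelatinase granule and mature cell genes had 17 of 19 members tested, with 8 called higher, 1 called lower and a median of 2.46. Retnlg, a resistin-like protein of mature mouse neutrophils, had 5.91, 4.21 and 8.6 CPM in KO-labelled units 1 to 3 and 2 reads in all WT units, a pooled ratio of 282 with a counting interval of 77.8 to 2330 (adjusted p 0.00121). Clec4d, a C-type lectin receptor, had 244 reads in KO-labelled units and 0 in WT units and was at least 49.9-fold higher against the floor of 3 reads (adjusted p 0.00403), or 26.7-fold without WT unit 3. Mmp9, the gelatinase that names these granules, had 8.25 ± 2.04 CPM in KO-labelled units and 2.12 ± 0.566 CPM in WT units (log2 fold change 1.95 ± 0.33, adjusted p 0.00736). All 3 passed in every fit without a unit.

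Genes of this list also went the other way or did not move. Il1r2, a decoy receptor for interleukin 1 that regulatory T cells also express, was the 1 gene called lower, with a log2 fold change of -1.65 ± 0.34 (adjusted p 0.015), and the call ended without WT unit 4. Cxcr2, the chemokine receptor of mature neutrophils, had 21.5 ± 5.21 CPM in KO-labelled units and 18.9 ± 7.74 CPM in WT units and did not pass (adjusted p 0.73). Csf3r, the receptor of G-CSF, which is named here after its values were seen, had a log2 fold change of 3.77 ± 0.72 (adjusted p 0.0245), a call that ended without KO-labelled unit 3 or WT unit 2 or 4. The other calls were Trem1, Ly6g, Clec4e and Asprv1, none of which passed in all 7 fits.

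The regulators of granulocyte formation were all tested, 10 of 10, and 6 were called higher, with a median of 1.44. Cebpe, the C/EBP factor needed for specific granules, had 1.11, 0.357 and 3.45 CPM in KO-labelled units 1 to 3 and 0 reads in WT units, at least 52.9-fold higher against the floor of 3 reads (adjusted p 0.0185). The bound was 21.8-fold without KO-labelled unit 3, which held most of the reads, and 28.4-fold without WT unit 3. Gata2, a factor of progenitors, mast cells and basophils, had 13.6 ± 2.2 CPM in KO-labelled units and 0.314 ± 0.35 CPM in WT units (log2 fold change 5.47 ± 0.92, adjusted p 0.0131). Irf8, a factor of the monocyte and B cell lines, rose by 1.44 ± 0.21 on the log2 scale (adjusted p 0.00378). These 3 calls held in all 7 fits without a unit.

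Myb, a factor of progenitor cells, was well expressed in both groups, with 126 ± 31 CPM in KO-labelled units and 68.8 ± 12.4 CPM in WT units. It rose by 0.88 ± 0.19 on the log2 scale (adjusted p 0.0191), a call that ended without KO-labelled unit 3 or WT unit 4. Spi1, which encodes PU.1 and is named after its values were seen, had a log2 fold change of 4.07 ± 0.85 (adjusted p 0.0261), and the call ended without KO-labelled unit 3 or WT unit 2 or 4. Cebpd was the other call. Cebpa, the C/EBP factor of early granulocyte precursors, had 4.29, 2.45 and 10.02 CPM in KO-labelled units and 2.07 ± 0.548 CPM in WT units and did not pass (adjusted p 0.0674). Gfi1, a repressor that T cells express too, had 41.8 ± 0.551 CPM in KO-labelled units and 56.2 ± 7.86 CPM in WT units and did not pass either (adjusted p 0.0629).

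The distribution of the primary class was looked for among these genes. At the bound of 4 times the mean of KO-labelled units 1 and 2, unit 3 held 2 of the 43 genes tested, against 2.36% of all genes tested. They were Prss57, at 9.65 times, and Cebpe, at 4.72 times. Next below the bound came Hp and Cebpd, both at 3.69 times, Cebpa at 2.97, Lrg1 at 2.78 and Mmp25 at 2.75. Of the 6 genes that did not pass the filter, Olfm4 and Mrgpra2b also lay past the bound, with 47 and 190 reads in KO-labelled units. Mrgpra2b had 0.996, 0 and 2.57 CPM in KO-labelled units 1 to 3, so its estimated count was 0 in unit 2 and not low throughout. Words shared with other genes were counted for the 10 genes only, so how certain this estimate is was not checked.

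**Figure D4:**
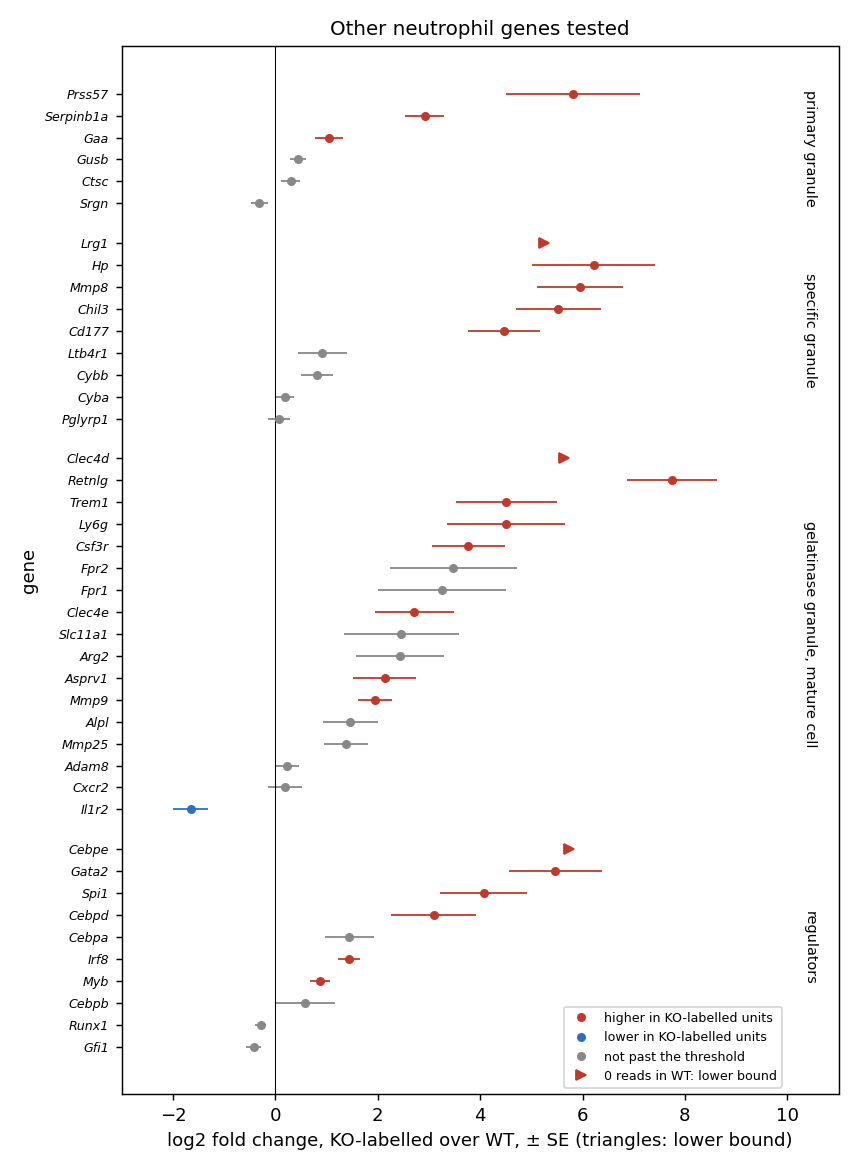
Log2 fold change of KO-labelled over WT units with its SE for other neutrophil genes tested, grouped by list, with genes called higher in red, lower in blue and not called in grey. Triangles mark Lrg1, Clec4d and Cebpe, which had 0 WT reads, at their lower bound, and the lists hold 22 genes called higher and 1, Il1r2, called lower.

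The genes whose levels over the 7 units were most like each class were found by the root mean square difference of centred log2 CPM profiles. The profile of a class is the mean over its own genes, so their measures are lowered by construction. They are therefore not directly comparable with those of other genes, in either class. For the primary class the measure was between 0.320 (Prtn3) and 0.909 (Elane) for its own 4 genes. The nearest other genes were the immunoglobulin segments Ighv1-4 at 0.760, Igkv4-70 at 0.943 and Ighv1-54 at 0.954, then Hp at 0.969 and Rab44 at 0.979. Rab44, a large GTPase, had 17.7, 22.2 and 75.0 CPM in KO-labelled units 1 to 3, against 1.57, 0.049, 0.549 and 0.076 CPM in WT units 1 to 4.

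For the later class the measure was between 0.428 (S100a9) and 0.976 (Camp) for its own 6 genes. The nearest others were Ighv5-12 at 0.602, Ptgs2 at 0.823, Il1b at 0.965, and Igkv3-2 and Igkv6-14 at 1.04. Il1b, which encodes interleukin 1 beta, had 16.6, 11.8 and 12.8 CPM in KO-labelled units, against 1.02, 0.049, 0.100 and 0.457 CPM in WT units. Ptgs2, which encodes cyclooxygenase 2, had 8.92, 7.27 and 6.92 CPM in KO-labelled units, against 0.708, 0, 0 and 0.381 CPM in WT units. The likeness is a description over 7 units that differ in depth, it is set largely by the gap between the groups, and immunoglobulin segments share sequence with one another, so their levels are uncertain.

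The summed markers of several other cell types were also higher in each KO-labelled unit than in any WT unit, though the order of units within a group differed between lists. The 16 neutrophil markers, which include the 10 genes, summed to between 339 and 1722 CPM in KO-labelled units. In WT units they summed to between 15.3 and 47.3 CPM. The primary genes alone gave 163.6, 140.8 and 1394 CPM in KO-labelled units 1 to 3. The later genes gave 324.0, 133.5 and 234.8 CPM there. Because the 10 genes were chosen for high values in these units, the higher neutrophil sum follows largely from that choice. A neutrophil sum without them is not given here. The 10 erythroid markers summed to 435, 181 and 3456 CPM in KO-labelled units 1 to 3, against 77.8, 104, 10.4 and 18.6 CPM in WT units 1 to 4. KO-labelled unit 3 thus held 11.2 times the mean erythroid sum of KO-labelled units 1 and 2, in the unit that was also high in primary granule genes; 0 of the 10 erythroid markers were called between the groups.

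Other myeloid lists followed in part. The 6 myeloid progenitor markers summed to 67.35, 60.3 and 129 CPM in KO-labelled units, against 22.5, 14.2, 12.1 and 17.0 CPM in WT units, with 3 of 6 called higher, against 7.07% of all genes tested. The 8 markers of basophils, mast cells and eosinophils summed to 48.0, 35.7 and 132 CPM in KO-labelled units, against 14.1, 9.28, 12.96 and 11.1 CPM in WT units, with 6 of 8 called higher and Fcer1a at 0 reads in WT units. The 10 monocyte and macrophage markers summed to between 248 and 674 CPM in KO-labelled units and between 143 and 242 CPM in WT units, with 2 of 10 called higher; each of these counts stands beside the same 7.07%. Each of these lists was highest in KO-labelled unit 3, though by less than the primary granule genes.

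The 8 B cell markers ran otherwise, at 336, 276 and 163 CPM in KO-labelled units 1 to 3, against 81.5, 44.2, 32.0 and 41.3 CPM in WT units 1 to 4, with 6 of 8 called higher, against 7.07% of all genes tested, and the lowest KO-labelled sum in unit 3. The regulatory T cell sum was lowest in KO-labelled unit 3 as well. The part of other cell types in the levels of the granule genes was not tested.

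**Figure D5:**
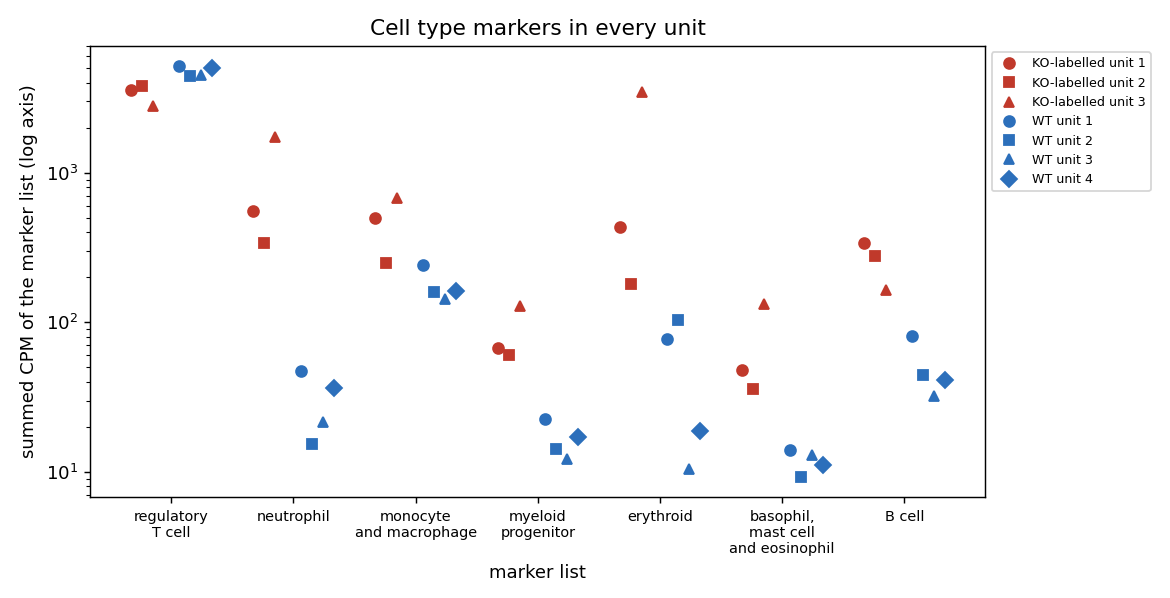
Summed CPM of 7 cell type marker lists in every unit on a log axis, with KO-labelled units 1 to 3 in red and WT units 1 to 4 in blue. For every list but that of regulatory T cells the KO-labelled sums lie above all WT sums. The neutrophil list includes the granule genes chosen for high values in KO-labelled units, so its gap follows largely from that choice. KO-labelled unit 3 reaches 3456 CPM for the erythroid list, and the regulatory T cell sums of all KO-labelled units lie below those of the WT units.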

How the data were processed

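RNA was extracted with Trizol from sorted cells and made into non-stranded TruSeq libraries, per the labels' protocols, so a gene and an antisense neighbour cannot be told apart. The authors deposited 14 kallisto tables on GRCm38, per the submitters' processing notes. The release of kallisto and its annotation are not given in the sources used here. Expected counts of the authors estimate the reads of each transcript and are not normalized. The TPM values deposited by the authors are scaled to 1 total per table, per the file headers, and were recomputed here per unit. The other deposited columns, transcript lengths and effective lengths, were the same in all tables.

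Estimated counts were summed per gene with the GENCODE annotation of GRCm38; 2079 of 88198 transcripts found no gene and held between 1.17% and 1.28% of reads. Samples that share the first number of their title were added as 1 unit, and sums were rounded. edgeR 4.0.16 in R 4.3.3 tested 15775 genes (TMM, filterByExpr, robust quasi-likelihood fit, group only) with Benjamini-Hochberg adjustment at 0.05; 1116 genes were called higher and 1028 lower. CPM uses TMM library sizes; standard errors derive from the F statistic. Tested on simulated data for this comparison (15468 genes), the step found 36% of genes with a 2-fold and 76% of genes with a 4-fold change; unchanged genes made up 8.2% of calls. Intervals are exact (95%).

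The members and lists were chosen with earlier results of these data known. Named genes are the 10 members, up to 4 called genes per list by smallest adjusted p, the 5 profiles most like each class, and Tln1; others named were chosen after their values were seen. Alternatives were DESeq2 1.42.0 size factors and Wald test, library-size and upper-quartile scaling, other filters, a replicate block, CPM or class medians, and leaving out units or the S100 genes. No label says that unit numbers pair KO-labelled with WT units. A gene of the lists, kept in the counts, is not reported here.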

Additional observations from a re-analysis of the deposited data

How the results depend on the processing

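The log2 fold changes of the 10 genes stayed positive in all 139 values under the alternatives, between 5.02 and 9.95, and 123 of them moved by less than the SD between KO-labelled units; Camp was not tested under the filter of at least 10 CPM in 3 units. The median of the primary genes ranged from 6.08 to 8.51 with 1 unit left out, and that of the later genes from 6.09 to 7.84. With the replicate block, the primary median was 7.19 and the later median 7.64, 612 genes were called (345 higher, 267 lower) and 11 other neutrophil genes were higher. Deviations of same-numbered units correlated at 0.0288, -0.107 and -0.0563, within the range of -0.178 to 0.168 for unlike-numbered units. No pairing was seen by this measure, but so few units cannot exclude one. The DESeq2 Wald test called 3542 genes (1840 higher, 1702 lower); its adjusted p was not given for 107 genes, 4 of the 10 among them. Leaving out 1 unit gave 758 to 1905 genes, 449 to 1120 higher and 309 to 978 lower, and 11 to 21 other neutrophil genes; the lowest counts came without WT unit 4. The filter of at least 10 CPM left 7 of these 22. Without S100a8 and S100a9 the log2 ratio of primary to later TPM averaged 1.17 in KO-labelled units and 1.67 in WT units. In CPM it was 0.55 in KO-labelled units and 1.22 in WT units, with class medians 0.67 and -0.0035. With 1 unit left out it lay between -1.905 and 0.003 in KO-labelled units and between -1.70 and 0.999 in WT units, so its sign depends on the setting in both groups. The cause was not tested. With between 3 and 47 WT reads for 9 of the genes, WT levels and folds are imprecise.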
